A study of Mus musculus with 12 samples.

Results

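Imprinted growth genes are described here in mouse hearts after acute pressure overload. The set holds 9 named genes, H19, Igf2, Igf2r, Cdkn1c, Peg3, Meg3, Grb10, Plagl1 and Ndn, and all 9 were found by name among the 13552 genes of the table. The set was chosen from measured values in part: H19 was picked on its levels after transverse aortic constriction (TAC) beside those after sham surgery, in both genotypes. Those levels of H19 are therefore given as a description, without a test. Hearts came from 12 C57BL/6 mice in 4 groups of 3, collected 9 h after surgery: wild type (WT) after sham surgery, WT after TAC, Bcl-xL S14A knock-in (KI) after sham and KI after TAC. TAC narrows the aorta and raises the pressure the left ventricle pumps against, and sham mice had surgery without the constriction. KI mice were homozygous and carried alanine in place of a phosphorylated serine of Bcl-xL, a regulator of cell death, in every cell. All 12 mice had surgery, at 8 to 10 weeks of age by the study's methods. The KI line came from embryonic stem cells, lost its selection cassette in a cross with CMV-Cre mice and was backcrossed to C57BL/6J. The methods name bought WT males and do not say which WT mice entered this experiment, so genotype and source of the mice cannot be told apart. The point mutation cannot be checked from RNA levels.

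Imprinted genes are expressed mainly from the copy inherited from 1 parent, and many of them act on growth before birth. Paternally expressed genes such as Igf2 tend to promote growth, and maternally expressed genes such as Igf2r, Cdkn1c, Grb10 and H19 tend to restrain it. Many are known to be high in the fetal heart and to fall after birth. Sequencing of total poly(A) RNA, as here, sums both copies of a gene, so no value below says which parental copy was read. Several genes are known to be imprinted only in some tissues, such as placenta or brain.

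H19 (ENSMUSG00000000031) is a long noncoding RNA on chromosome 7, 142575529 to 142578143 of GRCm38, minus strand, with 2460 exon bases. It is also the precursor of the microRNA miR-675, whose hairpin lies at chr7:142577064-142577147 on the minus strand, inside exon 1 of the transcripts H19-202 and H19-205 and exon 2 of H19-206. The other 4 of 7 annotated H19 transcripts do not hold it. The hairpin is shown because the H19 values are of the RNA it is cut from, with the mature arms in capitals, and the mature arms follow with the seed (bases 2 to 8) in capitals. The sequences are from RefSeq on GRCm38.p6.
Mir675 hairpin: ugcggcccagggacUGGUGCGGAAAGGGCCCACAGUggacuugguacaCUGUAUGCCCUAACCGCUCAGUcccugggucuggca
mmu-miR-675-5p: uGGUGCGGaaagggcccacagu
mmu-miR-675-3p: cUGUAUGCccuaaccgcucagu
The 2 arms have different seeds. The values below are of the poly(A) H19 transcript, and miR-675 itself was not measured.

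Values are RPKM, read counts scaled to exon length and to library depth, so that levels can be compared between genes per length. Depth, recovered from the low values, was 23650200 to 32455350 reads per heart. Differences were tested with limma on log2(RPKM + 1), a scale that understates the change of low genes, over 11240 genes (1 RPKM or more in at least 3 hearts), with Benjamini-Hochberg adjustment over all of them and a threshold of 0.05. With 3 hearts per group, the smallest two-sided p of an exact permutation test is 0.1. KI TAC mouse 7 stood apart from the other KI TAC mice in several members and in Nppa, the gene of atrial natriuretic peptide and a marker of cardiac load. Its Nppa level was 195 RPKM, against 57.8 RPKM in KI TAC mouse 5 and 80.0 RPKM in KI TAC mouse 6. WT TAC hearts had 483, 207 and 758 RPKM of Nppa, and sham hearts of both genotypes 24.7 to 65.3 RPKM. Myh7, the myosin gene that rises in the loaded mouse heart, was instead lowest in mouse 7 among the KI TAC hearts, at 21.1 RPKM against 33.6 and 47.0 RPKM in mice 5 and 6. All 10 cardiomyocyte markers were present in every heart, at a summed level of 15503 to 25792 RPKM. In whole hearts, fewer cells of a type and less RNA per cell cannot be told apart.

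By level per length, Igf2r came first, with a median of 46.0 RPKM over the 12 hearts (26.7 to 50.2), apart from all other members. Grb10 followed at 13.1 RPKM (8.63 to 17.4), then Cdkn1c at 6.58 RPKM (2.22 to 14.3), H19 at 3.58 RPKM (1.19 to 10.6) and Ndn at 2.87 RPKM (0.820 to 4.62). Peg3 lay at 1.04 RPKM (0.473 to 9.84), Meg3 at 0.867 RPKM (0.496 to 1.65), Plagl1 at 0.483 RPKM (0.239 to 1.09) and Igf2 at 0.320 RPKM (0.10 to 0.726). From Grb10 down, each gene's range overlapped the next. The growth factor gene Igf2 was thus the lowest member and its receptor Igf2r the highest. Of the 9 members, 7 passed the filter on low values; Igf2 reached 1 RPKM in 0 hearts and Plagl1 in 1, so neither was tested.

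H19 was 3.80, 2.75 and 3.36 RPKM in WT sham mice 1, 2 and 3, and 7.03, 10.6 and 6.66 RPKM in WT TAC mice 7, 9 and 10. Each WT TAC heart was above each WT sham heart, with means of 8.08 ± 2.15 against 3.30 ± 0.525 RPKM (SD, n = 3 each). In KI sham mice 1, 2 and 3 it was 2.25, 4.47 and 1.84 RPKM, and in KI TAC mice 5, 6 and 7 it was 1.31, 1.19 and 8.32 RPKM. KI TAC mice 5 and 6 had the 2 lowest H19 levels of all 12 hearts, and KI TAC mouse 7 the second highest. The KI TAC mean of 3.61 ± 4.08 RPKM (SD, n = 3) therefore describes none of the 3 hearts. Reads on H19 ran from 93 to 769 per heart.

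The log2 difference in H19 was 1.06 (SE 0.43) for WT TAC against WT sham, between 0.87 and 1.27 under 12 other ways of processing. In the KI hearts the same difference was -0.03 (SE 0.43), and quantile normalization and median-ratio scaling turned it to 0.06 and 0.05. Without KI TAC mouse 7 it was -0.71. KI TAC lay below WT TAC by -1.30 (SE 0.43), and by -1.99 without that mouse. The difference between the genotypes in the TAC response was -1.09 (SE 0.61), and -1.77 without that mouse. Between the sham groups, KI minus WT, it was -0.21 (SE 0.43). The rule that chose H19 looked at all 4 groups, so none of these differences was tested.

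**Figure D1:**
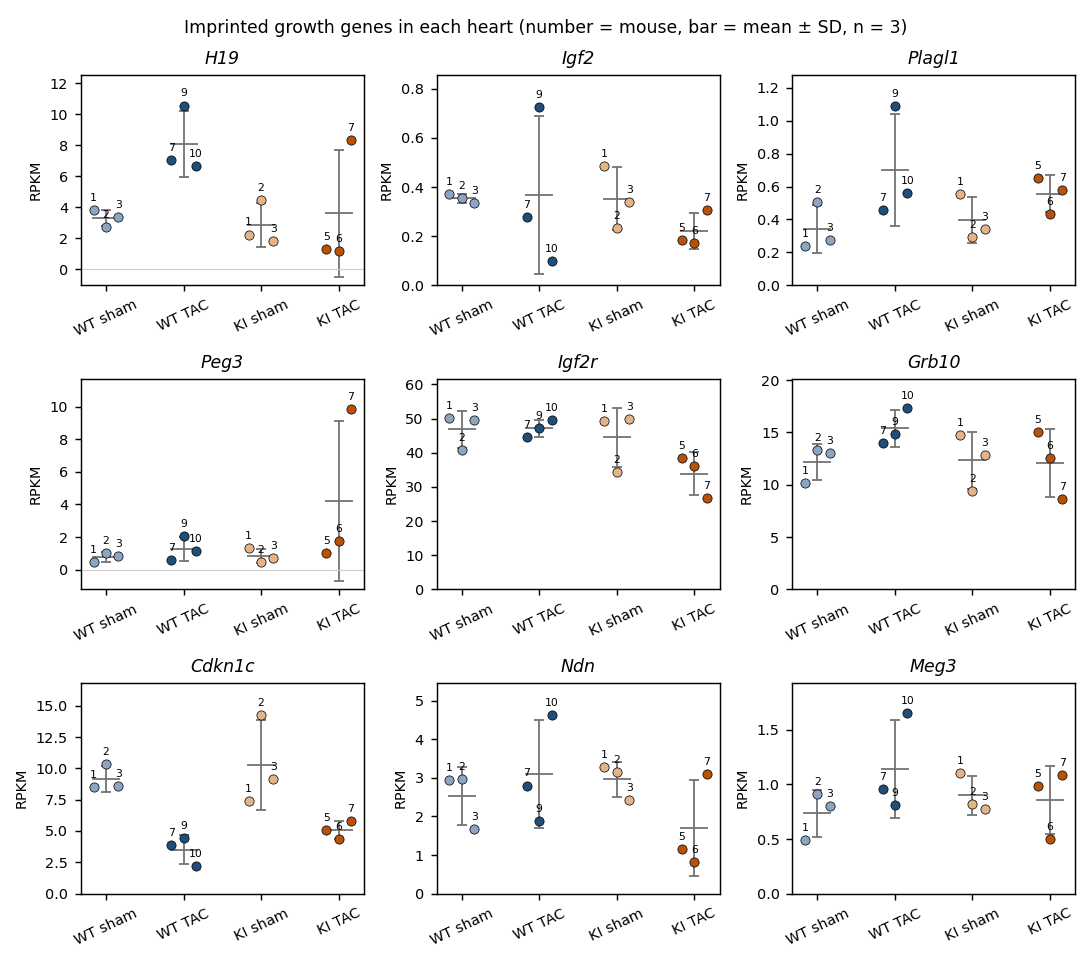
RPKM of each of the 9 members in each heart, 1 panel per gene with its own scale. Points are hearts, numbers are mice, and bars are the mean ± SD of 3 hearts. H19 separates WT TAC from WT sham and splits the KI TAC hearts, with mouse 7 at 8.32 RPKM, while Cdkn1c is lower in all TAC hearts of both genotypes than in their sham hearts.

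Cdkn1c (ENSMUSG00000037664, chromosome 7, 143458339 to 143461050, minus strand) encodes p57, an inhibitor of cyclin-dependent kinases, and lies near H19 in the imprinted Kcnq1 domain. It was 8.55, 10.4 and 8.61 RPKM after sham and 3.89, 4.41 and 2.22 RPKM after TAC in WT hearts. In KI hearts it was 7.38, 14.3 and 9.14 RPKM after sham and 5.12, 4.37 and 5.77 RPKM after TAC. In both genotypes every TAC heart lay below every sham heart.

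Cdkn1c fell after TAC in WT hearts by a log2 difference of -1.21 (SE 0.23, adjusted p = 0.00564). Under the 12 other ways of processing, adjusted p lay between 0.00555 and 0.0295. It also fell in KI hearts, by -0.85 (SE 0.23, adjusted p = 0.0195). The KI call did not hold without KI sham mouse 2, the highest heart (-0.61, adjusted p = 0.0782), or without KI TAC mouse 6 (-0.76, adjusted p = 0.0700), and adjusted p lay between 0.0119 and 0.0782 in all. The fall did not differ between the genotypes beyond its error (interaction 0.36, SE 0.33, 95% interval -0.36 to 1.07, adjusted p = 0.619). Between the TAC groups the level differed by 0.46 (adjusted p = 0.200).

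Among the 6 members tested other than H19, Cdkn1c was the 1 that passed the threshold in WT TAC against WT sham, where 11.6% of all genes passed in either direction and 4.60% as lower. Cdkn1c was also the 1 of 6 in KI TAC against KI sham, where 23.3% of all genes passed and 14.7% as lower. Counts of 1 gene in a set of 6 are too small to set the members apart from these shares. Hearts of the 2 WT groups did not overlap for Cdkn1c and Grb10, 2 of 6 members, against 35.1% of all genes. In KI hearts they did not overlap for Cdkn1c, 1 of 6, against 38.3%. The median log2 difference of all genes was 0.04 in WT and -0.10 in KI hearts, and median-ratio scaling moved the latter to 0.0030. Under that scaling Cdkn1c passed the threshold in KI hearts narrowly (adjusted p = 0.0481). The part of scaling in its fall was not tested.

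In KI TAC against WT TAC, 0 of 6 members passed in limma, 2 at an unadjusted p under 0.05 (Igf2r and Ndn), against 11.0% of all genes past the threshold. Limma-voom on recovered reads gave the same counts. In this comparison 1 of 6 members, Igf2r, had hearts that did not overlap, against 29.5% of all genes. In KI sham against WT sham, 0 of 6 passed, and 0 had an unadjusted p under 0.05, with either limma or limma-voom, against 0.0178% of all genes. For the interaction of genotype and surgery, 0 of 6 passed, 0 at an unadjusted p under 0.05 with both tools, against 0% of all genes.

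**Figure D2:**
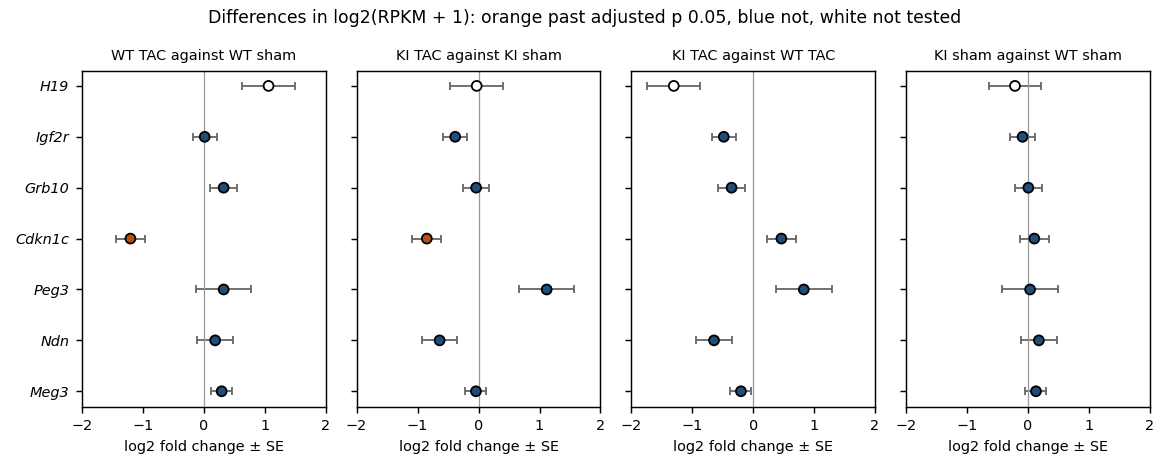
Log2 difference ± SE in log2(RPKM + 1) for the 7 members that passed the filter, 1 panel per comparison. Orange points passed an adjusted p of 0.05, blue points did not, and white points are H19, which was not tested. Cdkn1c is orange in both TAC against sham panels, at -1.21 and -0.85, and the H19 point moves from 1.06 in WT to -0.03 in KI hearts.

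Igf2r (chromosome 17, 12682406 to 12769664, minus strand) encodes the mannose 6-phosphate receptor that takes up and degrades IGF2. It was 50.2, 40.7 and 49.7 RPKM in WT sham mice, 44.6, 47.4 and 49.5 RPKM in WT TAC, 49.3, 34.4 and 49.8 RPKM in KI sham and 38.6, 36.2 and 26.7 RPKM in KI TAC hearts. Every KI TAC heart lay below every WT TAC heart, while TAC and sham hearts overlapped in both genotypes. TAC against sham differed by 0.01 in WT (SE 0.20, adjusted p = 0.978) and by -0.38 in KI hearts (SE 0.20, adjusted p = 0.182). The difference between the TAC groups was -0.48 (SE 0.20, 95% interval -0.91 to -0.053), with adjusted p = 0.124 (0.116 to 0.327 under the alternatives), so it did not pass. The antisense RNA Airn overlaps Igf2r on the other strand. Airn was 1.58, 3.37 and 3.07 RPKM after sham and 5.40, 7.04 and 3.52 RPKM after TAC in WT hearts, apart from each other, with a log2 difference of 0.78 that did not pass (adjusted p = 0.128). In KI hearts Airn was 4.98, 1.47 and 2.80 RPKM after sham and 4.12, 2.06 and 2.68 RPKM after TAC, with overlap (0.01, adjusted p = 0.981). The libraries kept strand, but the strand setting of the counting is not given in the sources used here.

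Grb10 (chromosome 11, 11930508 to 12038683, minus strand) encodes an adaptor that dampens signalling of the insulin and IGF1 receptors. It was 10.2, 13.3 and 13.0 RPKM after sham and 13.98, 14.9 and 17.4 RPKM after TAC in WT hearts, and each TAC heart was above each sham heart. The log2 difference was 0.32 (SE 0.22, 95% interval -0.14 to 0.79, adjusted p = 0.351). In KI hearts Grb10 was 14.8, 9.38 and 12.8 RPKM after sham and 15.0, 12.5 and 8.63 RPKM after TAC, and the groups overlapped. Igf2, the growth factor (chromosome 7, 142650766 to 142666816, minus strand), was 0.10 to 0.726 RPKM, from 15 to 123 reads. Its groups overlapped in each of the comparisons made. WT sham hearts (0.336 to 0.370 RPKM) and KI TAC hearts (0.171 to 0.305 RPKM), which were not compared, did not overlap. Its highest and its lowest heart were both WT TAC, mice 9 and 10. The annotation places the same-strand gene Gm49394 over Igf2, so reads at that place could be counted on either.

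Peg3 (chromosome 7, 6703892 to 6730431, minus strand) encodes a zinc finger protein expressed from the paternal copy. It was 0.473, 1.05 and 0.821 RPKM in WT sham mice, 0.614, 2.08 and 1.16 RPKM in WT TAC and 1.32, 0.482 and 0.722 RPKM in KI sham hearts. In KI TAC mice 5, 6 and 7 it was 1.04, 1.74 and 9.84 RPKM. KI TAC mouse 7, with 4135 reads on Peg3, held the highest level of the 12 hearts. The log2 difference of KI TAC against KI sham was 1.12 (SE 0.46, adjusted p = 0.0917). It was 0.38 without KI TAC mouse 7 (adjusted p = 0.313) and passed without KI TAC mouse 5, at 1.59 (adjusted p = 0.0273). Which mice enter thus decides this value.

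Ndn (chromosome 7, 62346569 to 62350262, plus strand) encodes necdin, a growth suppressor first known from neurons. It was 2.95, 2.98 and 1.67 RPKM in WT sham mice, 2.80, 1.88 and 4.62 RPKM in WT TAC and 3.28, 3.16 and 2.44 RPKM in KI sham hearts. In KI TAC mice 5, 6 and 7 it was 1.16, 0.820 and 3.11 RPKM. KI TAC mice 5 and 6 held the 2 lowest levels of the 12 hearts, as they did for H19. Mouse 7 lay among the sham hearts in Ndn, whereas its H19 level was above all of them. KI TAC differed from KI sham by -0.64 (SE 0.29, adjusted p = 0.130) and from WT TAC by the same -0.64 (SE 0.29, adjusted p = 0.157). Without KI TAC mouse 7 the differences were -0.99 in both comparisons and passed (adjusted p = 0.0167 and 0.0247).

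With H19 set aside, 5 of 8 members were highest in mouse 7 among the KI TAC hearts (Igf2, Cdkn1c, Peg3, Ndn and Meg3), and 2 of 8 were lowest there (Igf2r and Grb10). Of all 13552 genes, 53.4% were highest and 16.6% lowest in that heart, so the members' counts lie near those of all genes. Promoter windows of 300 bases, 250 before to 50 after the start, were given for 7 of the 9 members in RefSeq on GRCm38.p6, and those of Peg3 and Ndn are shown because leaving out that heart moved their KI differences by more than those of Igf2r, Grb10 and Cdkn1c. H19 and Cdkn1c were the members without one. Peg3 is at chr7:6730370-6730669 on the minus strand and Ndn at chr7:62348027-62348326 on the plus strand, and capitals mark the motifs found. The Ndn window follows the RefSeq start and lies wholly inside the GENCODE gene given above, whose start is farther upstream.
Peg3: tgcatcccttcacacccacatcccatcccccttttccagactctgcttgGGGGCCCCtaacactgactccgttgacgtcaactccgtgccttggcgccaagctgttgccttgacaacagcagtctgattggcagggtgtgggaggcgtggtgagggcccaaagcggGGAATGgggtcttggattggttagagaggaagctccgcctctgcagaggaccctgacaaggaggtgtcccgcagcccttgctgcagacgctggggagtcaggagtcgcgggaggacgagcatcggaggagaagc
Ndn: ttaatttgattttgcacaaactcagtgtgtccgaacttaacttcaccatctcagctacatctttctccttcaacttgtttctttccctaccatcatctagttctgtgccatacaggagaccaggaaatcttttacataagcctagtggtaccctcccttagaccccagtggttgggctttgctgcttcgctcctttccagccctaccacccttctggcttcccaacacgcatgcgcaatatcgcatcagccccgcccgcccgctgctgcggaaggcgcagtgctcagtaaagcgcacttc
Both strands were searched for GGGGCCCC, TGANTCA (the AP-1 site), CACGTG (an E-box), GGAATG (the TEAD site) and TATAAA (the TATA box). The Peg3 window held GGGGCCCC, which 1.08% of 32851 windows of the same length hold, and GGAATG, which 14.7% hold. The Ndn window held none of these letters. Of the windows not shown, GGAATG was found for Igf2, CACGTG for Igf2r and Plagl1, TATAAA for Meg3 and none of the motifs for Grb10. TGANTCA is in 7.81%, CACGTG in 7.15% and TATAAA in 13.6% of all windows. The Peg3 window has 13 CpG sites and the Ndn window 11, against a median of 7 in all windows. Neither methylation nor binding was measured in these hearts.

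Meg3 (chromosome 12, 109541001 to 109571726, plus strand) is a maternally expressed long noncoding RNA. It was 0.496, 0.916 and 0.799 RPKM in WT sham mice, 0.961, 0.816 and 1.65 RPKM in WT TAC, 1.10, 0.817 and 0.777 RPKM in KI sham and 0.982, 0.503 and 1.09 RPKM in KI TAC hearts. All groups overlapped, with a log2 difference of 0.29 in WT hearts (SE 0.17, adjusted p = 0.289) and -0.04 in KI hearts (SE 0.17, adjusted p = 0.880). Plagl1 (chromosome 10, 13060504 to 13131694, plus strand) encodes a zinc finger factor known to act on other imprinted genes. It was 0.239, 0.508 and 0.272 RPKM in WT sham mice, 0.458, 1.09 and 0.558 RPKM in WT TAC, 0.555, 0.292 and 0.339 RPKM in KI sham and 0.654, 0.432 and 0.580 RPKM in KI TAC hearts, from 52 to 252 reads. Its groups overlapped too.

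Markers of the other cells of the heart varied between the hearts in which members varied. Their level is given as the mean of log2(RPKM + 1) over a list, minus the mean of the WT sham hearts. All 12 fibroblast markers were present, with summed levels of 615 to 916 RPKM in WT sham mice, 569 to 1249 in WT TAC, 687 to 819 in KI sham and 562 to 801 in KI TAC hearts. The fibroblast level was 0.80, -0.0026 and 1.61 in WT TAC mice 7, 9 and 10, so the WT TAC heart with the most H19, mouse 9, had the lowest fibroblast level of the 3. In the same mice the endothelial level was 0.16, 0.30 and -0.08 and the neutrophil level 0.85, 1.40 and 0.62, both highest in mouse 9. The macrophage level was 0.44, 0.30 and 1.05 and the mural level 0.08, 0.09 and 0.40, both highest in mouse 10. Ndn and Meg3 were highest of all hearts in WT TAC mouse 10, which also had the highest fibroblast level. In KI TAC mice 5, 6 and 7 the fibroblast level was -0.19, -0.06 and 0.33, highest in mouse 7, as were H19 and Ndn. The macrophage level was 0.20, 0.22 and 0.49 in these mice and the mural level -0.24, -0.16 and 0.08. The endothelial level was 0.08, 0.08 and 0.23. These levels were also highest in mouse 7, where 53.4% of all genes were highest among the KI TAC hearts. The cardiomyocyte level was 0.09, -0.03 and -0.06 in WT sham mice and -0.58, -0.43 and -0.30 in WT TAC hearts. It was -0.07, 0.07 and 0.06 in KI sham and -0.33, 0.14 and -0.18 in KI TAC hearts. Of the 10 cardiomyocyte markers 2 fell in WT hearts, Myh6 and Atp2a2, with a median log2 difference of -0.59 over the 10, beside 4.60% of all genes called lower, and 1 fell in KI hearts, Pln, with a median of -0.01, beside 14.7%. Of the other lists in WT hearts, 2 of 12 fibroblast markers rose and 1 fell, 3 of 8 macrophage markers rose, 2 of 3 tested neutrophil markers rose and 1 of 8 mural markers rose and 1 fell, beside 11.6% of all genes called. In KI hearts 3 of 3 neutrophil markers rose and 1 of 12 fibroblast, 1 of 8 macrophage and 1 of 8 mural markers fell, beside 23.3%. Between the TAC groups 2 of 10 cardiomyocyte markers were higher in KI hearts, Myl2 and Tnni3. Lower there were 1 of 12 fibroblast, 2 of 8 macrophage and 1 of 8 mural markers, beside 11.0% of all genes called. No endothelial marker of 8 passed in either genotype in limma, with 0 in WT and 2 in KI hearts at an unadjusted p under 0.05. Of 7 neutrophil markers 4 were in the table, without Ly6g, Cxcr2 and Retnlg, and their summed level was 0.508 to 1.27 RPKM in WT sham mice, 3.75 to 10.3 in WT TAC, 0.395 to 0.505 in KI sham and 21.2, 11.8 and 4.28 RPKM in KI TAC mice 5, 6 and 7. The 8 macrophage markers summed to 105 to 165 RPKM in WT sham mice, 177 to 281 in WT TAC, 115 to 139 in KI sham and 146 to 175 in KI TAC hearts. The 8 endothelial markers summed to 280 to 417 RPKM and the 8 mural markers to 217 to 352 RPKM over the 12 hearts. Of the markers of neighbouring tissues, 2 of 6 for epicardium and mesothelium, 1 of 7 for adipocytes (Cidea) and 1 of 8 for skeletal muscle (Ckm, also made in heart) were in the table, and the others were not. Ckm was called lower in WT TAC than WT sham and higher in KI TAC than WT TAC. The part of these cells in the member levels was not tested.

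**Figure D3:**
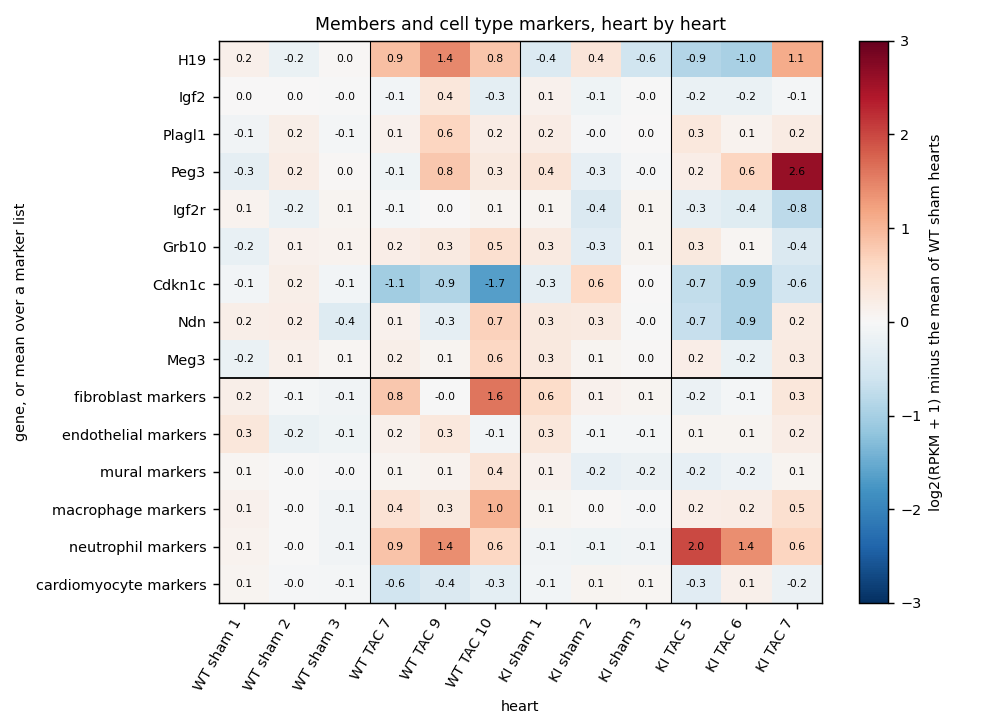
The 9 members and the means of 6 marker lists in each of the 12 hearts, as log2(RPKM + 1) minus the mean of the 3 WT sham hearts. Red is higher and blue lower. In KI TAC mouse 7 H19 and Peg3 are red while in mice 5 and 6 H19 and Ndn are blue, and the neutrophil markers run the other way, from 1.97 in mouse 5 to 0.64 in mouse 7.

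To place H19 among other genes, its pattern over the 12 hearts was compared with that of every gene tested, by Pearson's r of log2(RPKM + 1). The values describe hearts that share groups and libraries, and the 10 genes named are the extremes of comparisons with all 11240 genes. The highest r was that of Plvap, the diaphragm protein of endothelial pores, at 0.96 (Spearman's rho 0.94). Plvap was 4.50 and 5.21 RPKM in KI TAC mice 5 and 6 and 17.2 RPKM in mouse 7, and 13.2 to 18.2 RPKM in WT TAC hearts. Ranbp3, a cofactor of nuclear export, followed at 0.95, then Dda1, a subunit of DDB1 ubiquitin ligases, at 0.95, the histone variant gene H2ax at 0.91 and the aldehyde dehydrogenase gene Aldh3b1 at 0.90. The lowest r were those of Tnfaip8 (-0.87), Tmem117 (-0.86), the caveolin gene Cav1 (-0.85), Gadd45a (-0.83) and the neurogranin gene Nrgn (-0.83). Gadd45a, which is induced by DNA damage and other stress, was 38.0 and 18.7 RPKM in KI TAC mice 5 and 6 and 4.84 RPKM in mouse 7. Without WT TAC mouse 9 and KI TAC mouse 6, the 2 hearts farthest from the median of H19 on the log2(RPKM + 1) scale, r was 0.97 for Plvap and -0.75 for Gadd45a, and without KI TAC mouse 7, left out after the values were seen, 0.96 and -0.82. As these genes were picked as extremes, such values describe them and test nothing. None of the other members was among these genes, with Ndn at 0.52, Meg3 at 0.37, Peg3 at 0.36, Igf2r at -0.08, Grb10 at -0.11 and Cdkn1c at -0.30.

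A wider list of 59 genes known to be imprinted in the mouse had 39 genes in the table, and 33 of them passed the filter, 32 of which were tested, all but H19. With the members set aside, 26 were tested, and 4 of 26 changed in WT TAC against WT sham, 1 up and 3 down, beside 11.6% of all genes. In KI TAC against KI sham 4 of 26 changed, all down as deposited, beside 23.3% of all genes. Under alternatives some genes not called there passed as higher: Snrpn under median-ratio scaling and without KI TAC mouse 5, Peg10 with no filter, and Slc38a4 when KI TAC mouse 7 or the first KI sham mouse was left out. Blcap passed as lower without that KI TAC mouse. In WT hearts Slc38a4 passed as higher with the 2 groups alone (1.20, adjusted p = 0.0246) and without WT TAC mouse 10 (1.38, adjusted p = 0.0413). Atp10a passed as lower in KI TAC than WT TAC without KI TAC mouse 5 (adjusted p = 0.0472) or WT TAC mouse 9 (adjusted p = 0.0214). The median log2 difference of these 26 was 0.05 in WT and -0.04 in KI hearts, against 0.04 and -0.10 for all genes. The list was also split by the parental copy known to be expressed in some tissue, with the tested members and without H19. In WT hearts 4 of 17 maternally expressed and 1 of 15 paternally expressed genes passed, beside 11.6% of all genes. In KI hearts 5 of 17 and 0 of 15 passed, beside 23.3%, and 4 of the 15 had an unadjusted p under 0.05 in limma. Which copy was read in these hearts was not measured.

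Slc22a3, an organic cation transporter gene beside Igf2r in the same imprinted domain, fell in both genotypes. It was 5.29, 3.05 and 3.25 RPKM after sham and 0.974, 0.427 and 2.03 RPKM after TAC in WT hearts, and 3.58, 3.71 and 3.93 RPKM in KI sham and 1.02, 0.958 and 0.857 RPKM in KI TAC hearts. The groups did not overlap in either genotype, and both calls held under all 12 alternatives, with log2 differences of -1.22 (SE 0.23, adjusted p = 0.00490) and -1.29 (SE 0.23, adjusted p = 0.00174). Its neighbour Igf2r, as given above, did not pass the threshold in either genotype.

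Kcnq1, the gene of a cardiac potassium channel in the domain of Cdkn1c, fell in KI hearts. It was 29.1, 25.9 and 29.4 RPKM in KI sham and 16.3, 9.14 and 10.0 RPKM in KI TAC hearts, without overlap (-1.22, SE 0.26, adjusted p = 0.00450). In WT hearts it was 31.5, 24.9 and 28.8 RPKM after sham and 34.5, 20.8 and 44.1 RPKM after TAC, with overlap (0.16, adjusted p = 0.724). KI TAC was below WT TAC by -1.39 (SE 0.26, adjusted p = 0.00834), the 1 called gene of 26 in that comparison beside 11.0% of all genes, and this call did not hold without KI TAC mouse 6 or with the 2 groups alone (adjusted p up to 0.0544). The KI fall held under all 12 alternatives. The interaction was -1.38 and did not pass (adjusted p = 0.150), except without WT TAC mouse 9.

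Trappc9, of a vesicle trafficking complex, fell by -0.52 in WT (adjusted p = 0.0373) and -0.65 in KI hearts (adjusted p = 0.00725). Peg13, a noncoding RNA from within Trappc9, fell in WT hearts by -0.70 (adjusted p = 0.0380), and their reads may not be fully told apart. Atp10a, a lipid flippase gene in the domain of Ndn, rose in WT hearts by 0.78 (adjusted p = 0.0190), and Ppp1r9a, the neurabin gene, fell in KI hearts by -0.52 (adjusted p = 0.0447). The WT call of Peg13 was lost without any 1 of the 6 WT mice, and that of Trappc9 without any 1 of them but WT TAC mouse 10 and with the 2 groups alone (adjusted p up to 0.121 and 0.151). That of Atp10a did not hold without WT sham mouse 1 or WT TAC mouse 7 (up to 0.0777). The KI call of Ppp1r9a did not hold under either scaling or without any 1 of the KI mice but KI sham mouse 2 (up to 0.158), while the KI call of Trappc9 held under all 12 alternatives. Between sham groups 0 of 26 passed, 0 of them at an unadjusted p under 0.05 in limma, beside 0.0178% of all genes past the threshold. For the interaction 0 of 26 passed and 3 had an unadjusted p under 0.05, beside 0% of all genes past the threshold, and limma-voom called 0 of 26 in both.

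**Figure D4:**
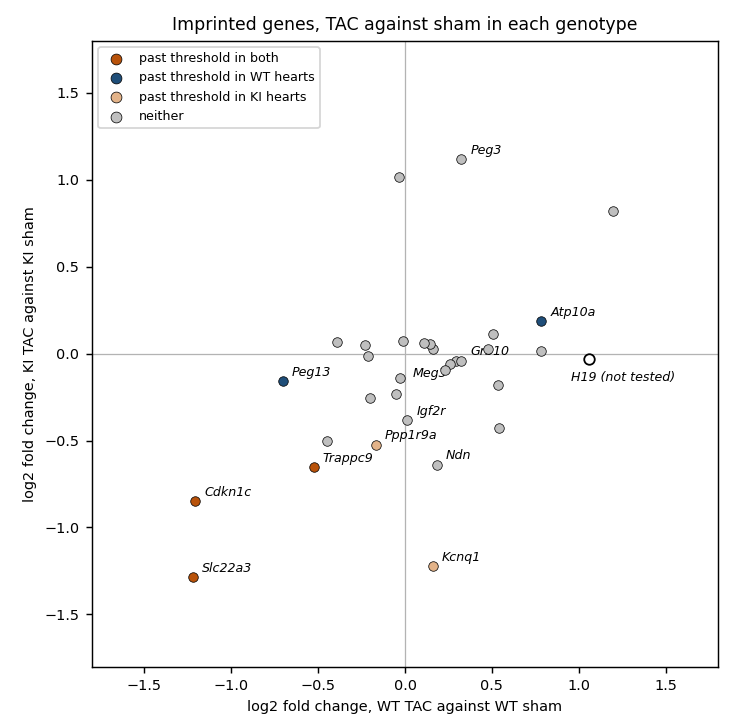
Log2 difference of TAC against sham in log2(RPKM + 1) for the 32 imprinted genes tested and H19, with WT hearts on the x axis and KI hearts on the y axis. Colours mark the genotype in which a gene passed an adjusted p of 0.05, and the open circle is H19, which was not tested. Cdkn1c, Slc22a3 and Trappc9 lie in the lower left and passed in both genotypes, and Kcnq1 lies at 0.16 and -1.22.

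Igf2, Igf2r, Grb10 and Plagl1 act on or with the insulin-like growth factor (IGF) axis. Of 23 genes on a list of that axis, 16 were tested: 0 rose and 2 fell in WT hearts, beside 11.6% of all genes called, 2 rose and 3 fell in KI hearts, beside 23.3%, and 0 were higher and 2 lower in KI TAC than WT TAC, beside 11.0%. Htra1, a protease that cleaves IGF binding proteins, fell by -1.36 in WT (adjusted p = 0.00367) and -0.90 in KI hearts (adjusted p = 0.0178). Stc2, a stanniocalcin that holds back the release of IGF from its binding proteins, fell by -0.78 (adjusted p = 0.0256) and -0.99 (adjusted p = 0.00386). Igf2bp2, which encodes an RNA binding protein named for Igf2 mRNA, was 0.724, 0.322 and 0.533 RPKM in KI sham and 10.8, 3.80 and 2.21 RPKM in KI TAC hearts and rose by 1.90 (adjusted p = 0.00479). In WT hearts Igf2bp2 was 0.387, 0.480 and 0.453 RPKM after sham and 1.31, 4.25 and 0.843 RPKM after TAC, without overlap but not called. For the interaction of genotype and surgery 0 of the 16 passed, beside 0% of all genes. Stc1 rose in KI hearts by 0.64 (adjusted p = 0.0202). Igfals, the acid-labile subunit that carries IGF in blood, fell in KI hearts by -1.17 (adjusted p = 0.0130) and was lower in KI TAC than WT TAC by -1.004 (adjusted p = 0.0468), as was the carboxypeptidase gene Cpd by -0.75 (adjusted p = 0.0340). Of these calls, those of Htra1 in WT hearts and of Stc2 and Igf2bp2 in KI hearts held under all 12 alternatives. The others did not hold without 1 mouse or more: Stc2 in WT without WT sham mouse 1 or WT TAC mouse 7 or 9, Htra1 in KI without KI sham mouse 2 or 3 or KI TAC mouse 5, Stc1 without KI sham mouse 2 or 3, and Igfals in KI without KI TAC mouse 5 (adjusted p up to 0.0939, 0.0631, 0.0941 and 0.0601). Igfals and Cpd between the TAC groups did not hold under either scaling, with the 2 groups alone, nor when any 1 of KI TAC mice 5 and 6 and WT TAC mice 7 and 10 was left out (up to 0.141 and 0.119), and that of Igfals was also lost with no filter. Alternatives also added calls. With no filter Igf1, the main ligand, passed as lower in KI TAC than WT TAC (-0.89, adjusted p = 0.0313) and Pappa as higher in WT TAC than WT sham (0.34, adjusted p = 0.0233). Without KI TAC mouse 7 Igfbp4 and Igfbp5 passed as lower and Igf2bp2 as higher in KI TAC than WT TAC, and Igfbp5 as lower than in KI sham. Igf2bp2 also passed as higher in KI TAC than WT TAC without WT TAC mouse 9. In KI hearts Cpd passed as lower without KI sham mouse 2. In WT hearts Igfbp3 passed as higher without WT TAC mouse 10, and Igfbp7 under quantile normalization. Igfbp6 passed there as lower under quantile normalization and without WT sham mouse 2. The receptor Igf1r did not pass in WT (0.57, adjusted p = 0.0568) or KI hearts (0.46, adjusted p = 0.0816), but passed without WT TAC mouse 10 (0.71, adjusted p = 0.0257) and without KI sham mouse 1 (0.60, adjusted p = 0.0466).

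Cdkn1c is one of several brakes on the cell cycle. A list of 20 cell cycle genes held cyclins, their kinases, inhibitors other than Cdkn1c and the proliferation genes Mki67, Top2a and Pcna. Of these 11 were tested, Pcna among them: 0 passed in WT hearts, 2 of them at an unadjusted p under 0.05, beside 11.6% of all genes past the threshold, and 4 passed in KI hearts, 1 up and 3 down, beside 23.3%. The inhibitor gene Cdkn1a rose in KI hearts by 3.37 (adjusted p = 0.00104), from 4.99 to 10.9 RPKM after sham to 65.7 to 117 RPKM after TAC. It was also the 1 called of 11 in KI TAC against WT TAC, higher by 1.996 (adjusted p = 0.0372), a call lost under 6 of 12 alternatives (adjusted p up to 0.134), beside 11.0% of all genes. Its relative Cdkn1b fell by -0.60 (adjusted p = 0.0237), and the cyclin genes Ccnd2 and Ccnd3 fell by -1.01 (adjusted p = 0.0104) and -0.56 (adjusted p = 0.0222). The KI calls of Cdkn1a and Ccnd2 held under all 12 alternatives. The KI call of Cdkn1b did not hold without KI sham mouse 1 or 3 or KI TAC mouse 5 (adjusted p up to 0.0900), and that of Ccnd3 without KI sham mouse 1 or 2 or KI TAC mouse 6, under median-ratio scaling or with the 2 groups alone (up to 0.0847). In KI hearts Cdkn1a was thus called higher and Cdkn1b and Cdkn1c lower. In WT hearts Cdkn1a was 4.10, 9.59 and 7.82 RPKM after sham and 17.6, 67.4 and 7.56 RPKM after TAC, with overlap (1.51, adjusted p = 0.0958), and passed without WT TAC mouse 10 (2.19, adjusted p = 0.0105). Cdkn1b was 10.6, 9.22 and 7.66 RPKM after sham and 5.97, 6.52 and 8.01 RPKM after TAC in WT hearts, also with overlap (-0.38, adjusted p = 0.177). The interaction of genotype and surgery did not pass for Cdkn1a (1.86, adjusted p = 0.296), except without WT TAC mouse 9, or for Cdkn1b (-0.23, adjusted p = 0.670). Of 23 genes that set or keep imprints, such as DNA methyltransferases and their partners, 16 were tested, and 1 of 16 passed, in KI hearts, beside 23.3% of all genes: Tet2, an enzyme that oxidizes methylated cytosine, rose by 0.65 (adjusted p = 0.0493), a call lost under 7 of 12 alternatives, among them without KI sham mouse 2 or 3 or KI TAC mouse 5 or 6 (adjusted p up to 0.189). In WT hearts 0 of 16 passed, 2 of them at an unadjusted p under 0.05, beside 11.6% of all genes past the threshold. Leaving out single mice added calls: without WT TAC mouse 9, Uhrf1, a partner of the maintenance methyltransferase, passed as higher in WT TAC than WT sham (1.15, adjusted p = 0.0178) and, with Dnmt1, as lower in KI TAC than WT TAC. The interaction of Uhrf1 also passed without that mouse (-1.51, adjusted p = 0.0456). Without KI TAC mouse 7, Dnmt1 and Arid4a passed as lower in KI TAC than WT TAC.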

How the data were processed

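RNA of 12 hearts was sequenced from strand-specific poly(A) libraries as single reads of 75 bases on a NextSeq 500, although the library is called paired-end. Per the submitters' processing notes, the authors used Trimmomatic 0.39, HISAT2 2.2.1 on GRCm38, HTSeq 0.6.1, and limma 3.32.10 and edgeR 3.18.1 in R 4.1.1. The deposited table holds RPKM values of 13552 genes in all 12 mice. The step from counts to RPKM and the gene filter are not given in the sources used here. GENCODE release M21 gave positions and exon lengths for 13546 genes, and depth was recovered from the steps that 1 read makes in low values.

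Samples were grouped by their labels for genotype and treatment. From the deposited RPKM, log2(RPKM + 1) was fitted in R 4.3.3 with limma 3.58.1 (lmFit, then eBayes with a trend) to 4 groups and all 12 mice, over genes with at least 1 RPKM in 3 or more mice. The fit was run on simulated reads with known changes, a fixed spread and no outlying hearts. That run does not check the fit for hearts that differ as these do. Alternatives were a pseudocount of 0.1, no filter, quantile normalization, median-ratio scaling, limma-voom on recovered reads, the 2 groups alone, a replicate block and leaving out each mouse. Named are all members, genes of the imprinted, IGF, imprint maintenance and cyclin lists past the threshold (at most 5 per list and comparison), the 5 genes most and least like H19, marker genes, and Nppa and Myh7 where a result turns on them. Genes given with values outside these rules (Airn, Igf1r, Igf1, Pappa, Uhrf1, Snrpn, Tssc4, Slc38a4) were chosen after their values were seen. The members, lists and tests were chosen with earlier results of these data known. Tables and plots were made with Python 3.11.15, pandas 2.3.3 and matplotlib 3.10.9.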

Additional observations from a re-analysis of the deposited data

How the results depend on the processing

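With n = 3 hearts per group, single mice decided several values. Without 1 mouse at a time, the number of members other than H19 past the threshold was 0 to 2 in KI TAC against KI sham and 0 to 1 in KI TAC against WT TAC, where the 1 was Ndn without KI TAC mouse 7. For the wider list without the members it was 1 to 4 in WT TAC against WT sham, 0 to 2 in KI TAC against WT TAC and 0 to 1 for the interaction. In KI TAC against WT TAC that list gave 2 under quantile normalization, 2 under median-ratio scaling (Kcnq1 and Commd1 in both) and 0 with the 2 groups alone. Small differences changed sign, none of them past the threshold: in WT hearts Igf2r (-0.017 under median-ratio scaling, -0.084 to 0.065 without 1 mouse) and Ndn (-0.070 to 0.41 without 1 mouse), and in KI hearts Meg3 (0.099 under quantile normalization, 0.020 under median-ratio scaling, -0.097 to 0.10 without 1 mouse) and Grb10 (0.018, 0.089 and -0.21 to 0.16). Between sham groups, without 1 mouse, Igf2r ranged from -0.18 to 0.085, Cdkn1c from -0.14 to 0.30, Peg3 from -0.14 to 0.18, Grb10 from -0.12 to 0.18 (-0.0016 under median-ratio scaling) and Ndn from -0.0086 to 0.28. Over all genes, 963 rose and 1657 fell in KI hearts as deposited, against 1436 and 1350 under median-ratio scaling; 328 were higher and 914 lower in KI TAC than WT TAC, against 643 and 604. A replicate block on the mouse numbers shared by the sham groups left 0 of 6 members past the threshold, as without it, and same-numbered mice correlated at -0.22, -0.30 and 0.44, so the number was not taken to pair mice. The cause of these changes was not tested.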

Other observations

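Other imprinted genes were looked at in KI TAC mouse 7 after the members' values were seen. Of the 30 in the table that are no members, 14 were highest and 6 lowest in that heart among the 3 KI TAC hearts, beside 53.4% and 16.6% of all genes. Snrpn, a splicing factor gene expressed from the paternal copy in the domain of Ndn, was 57.8 RPKM in that heart, against 11.6 and 14.9 RPKM in KI TAC mice 5 and 6 and 7.66 to 13.98 RPKM in WT sham hearts. The log2 difference of KI TAC against KI sham was 1.01 (SE 0.43, adjusted p = 0.101 in limma), and 0.33 without that heart (adjusted p = 0.355). It passed under median-ratio scaling (1.14, adjusted p = 0.0498) and without KI TAC mouse 5 (1.44, adjusted p = 0.0335). Tssc4, in the domain of Cdkn1c, was 13.3 RPKM in KI TAC mouse 7 and 4.54 and 5.41 RPKM in mice 5 and 6 with a log2 difference of 0.03 for KI TAC against KI sham (adjusted p = 0.956 in limma), and -0.39 without that heart (adjusted p = 0.213). The amino acid transporter gene Slc38a4 lay the other way, at 2.75 RPKM in mouse 7 against 8.83 and 5.10 RPKM in mice 5 and 6.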
